A study of Mus musculus with 12 samples.

Results

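The genes described here are the interleukins and interleukin receptors of thymic epithelial cells, the stromal cells that support and select developing T cells. Members were taken by gene symbol: 85 symbols start with Il and a digit, and the rule sets Il7, Il25 and Il17rb aside, so that 82 members remained of 25867 genes with a symbol. They comprise 40 receptor chains and 42 other genes, which are ligands, secreted inhibitors and a few genes that share only the prefix, such as Il4i1, an amino acid oxidase. A filter on low counts passed 69 members. The other 13 (Il1f10, Il36b, Il18rap, Il1rapl1, Il1rapl2, Il20, Il20ra, Il22ra2, Il17a, Il17f, Il2, Il21 and Il22b) never exceeded 2.12 CPM (counts scaled to the library's total) in any library. They were left out of the main test, and Il1rapl1 had 0 counts throughout.

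Interleukins are secreted proteins that act on cells carrying matching receptors, most of which are assembled from a ligand-specific chain and a chain shared within a family. Receptors of the common gamma chain, interleukin-6, interleukin-10 and interleukin-12 families signal through JAK kinases and STAT transcription factors, whereas interleukin-1 and interleukin-17 receptors use cytosolic adaptors that lead to NF-kB. In the thymus, epithelial cells are known both as a source of interleukins, among them interleukin-15, which is held on its own receptor chain and shown to neighbouring lymphocytes, and as a target of interleukins such as interleukin-4, interleukin-13 and interleukin-22.

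RNA was measured in 12 libraries, 3 from each of 4 groups of fetal thymic organ cultures on a C57BL/6 background. All groups shared the same culture, in which lobes of E15.5 embryos spent 4 to 5 days in 1.35 mM 2'-deoxyguanosine to remove thymocytes and a further 3 days with an activating anti-RANK antibody at 10 µg/mL. The control group had a genotype that the labels call control and received tamoxifen. The knockout group carried RosaCre-ERT2 and Kat7fl/fl, received tamoxifen, and so could lose Kat7, a histone acetyltransferase gene, in every cell type of the lobe. The DMSO and WM-3835 groups were wild-type cultures with solvent or with an inhibitor of KAT7, for which no dose or duration is given. Whether the controls carried the Cre or the floxed alleles is not stated, so an effect of the Cre itself cannot be told apart from the loss of Kat7.

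Kat7 stood at 80.5 ± 7.38 CPM in control, 0.762 ± 0.138 in knockout, 87.3 ± 2.37 with DMSO, and 99.4 ± 0.953 with WM-3835 (SD, n = 3). The libraries held 26656847 to 52368012 counts. The 12 thymic epithelial markers examined were all present and summed to 13700 to 18100 CPM. The 12 thymocyte and T cell markers summed to 17.1 to 27.7 CPM, with Cd8b1 and Rag2 averaging under 0.1 CPM in every group. Xist, which is transcribed in female cells, ranged from 2.34 to 3.17 CPM in control libraries and from 846 to 2120 CPM with DMSO or WM-3835, while knockout libraries 1, 2 and 3 held 1710, 1190 and 4.94 CPM. The sex of the embryos is not given in the labels, and knockout 3 was the only knockout library on the same side as the controls. Results of the knockout comparison are therefore also given with knockout 3 as the only knockout library where a call changed.

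Receptor chains were the more strongly transcribed members. Per length, as TMM-scaled RPKM, which divides CPM by gene length in kilobases, averaged over the 12 libraries, the median receptor chain stood at 2.81 RPKM and the median other member at 0.538, and 29 of 40 receptor chains but 14 of 42 others exceeded 1 RPKM. The highest member was Il15ra, the chain that captures interleukin-15, at 77.58 ± 23.3 RPKM (SD over 12 libraries). It was followed by Il10rb (51.09 ± 4.747), a chain shared by several receptors of the interleukin-10 family, and by Il4ra (47.59 ± 5.717), which binds interleukin-4. Next came Il6st (45.66 ± 9.043), the signal chain gp130 of the interleukin-6 family, and Il13ra1 (38.83 ± 3.649), the partner of Il4ra. The highest ligands were Il15 (29.4 ± 4.523 RPKM) and Il23a (24.76 ± 12.8), the specific subunit of interleukin-23. Il11ra1, Il2rg (the common gamma chain) and Il1rn (the interleukin-1 receptor antagonist) completed the first 10, at 24.61 ± 4.529, 23.04 ± 4.09 and 21.19 ± 6.608 RPKM. The order among neighbours was not firm: all libraries of Il15ra lay above those of Il10rb in 3 of the 4 groups, and each later member of the 10 lay wholly above the next in at most 2 groups.

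**Figure D1:**
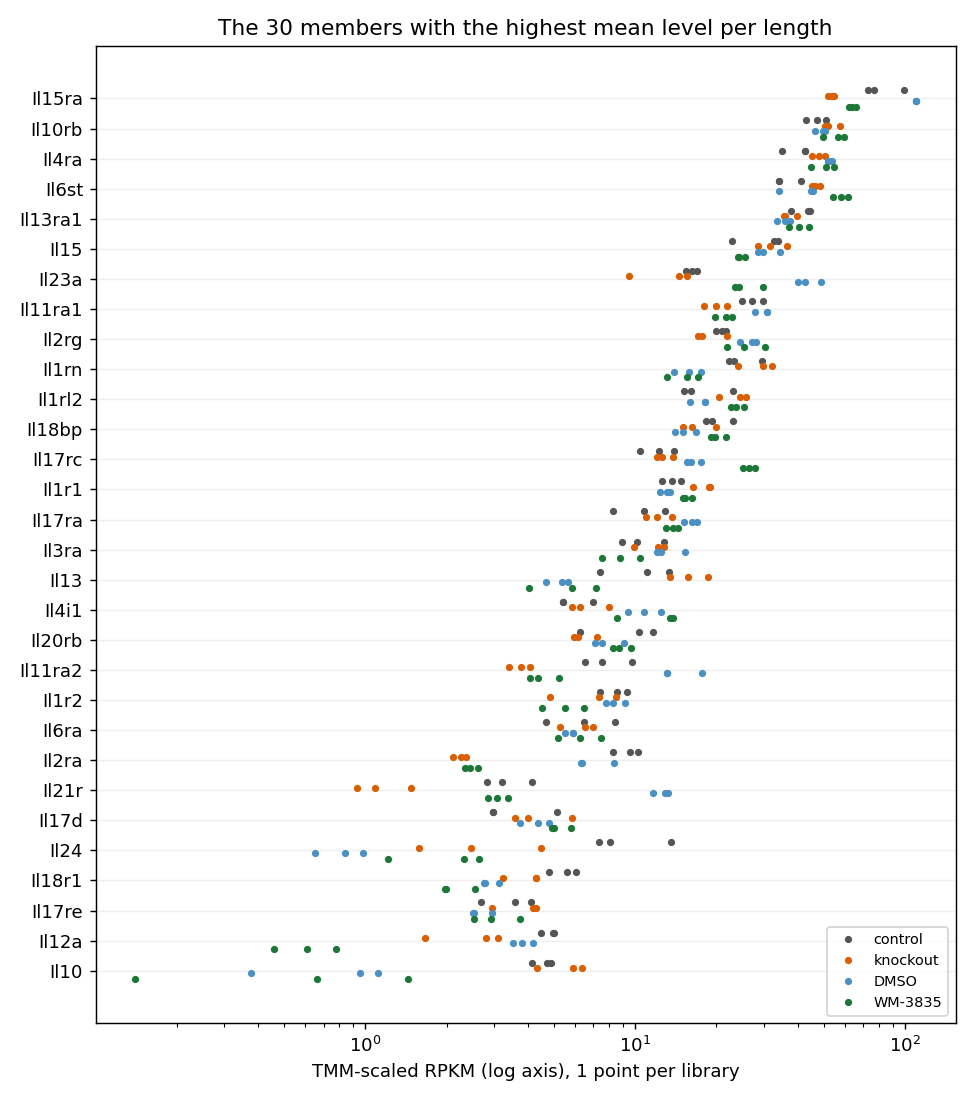
TMM-scaled RPKM (log axis) of the 30 members with the highest mean level per length, with 1 point per library and the 4 groups in different colours. Il15ra, Il10rb, Il4ra and Il6st sit at the top, and Il21r, Il24, Il12a and Il10 are the members whose groups lie farthest apart.

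In the knockout, 13 of the 69 tested members (18.8%) differed from control at an adjusted p under 0.05 in edgeR's quasi-likelihood test, against 14.2% of all 18670 tested genes. Of these, 3 were higher (4.35%, against 6.12% of all genes) and 10 lower (14.5%, against 8.06%). With WM-3835, 17 members (24.6%) differed from DMSO, against 18.7% of all genes, with 8 higher (11.6%, against 9.34%) and 9 lower (13.0%, against 9.35%). The median log2 change of the tested members was −0.283 in the knockout and −0.044 with WM-3835, against −0.011 and −0.009 over all genes. The number higher in the knockout was 1 without control 3, knockout 2 or knockout 3, and the number lower was 4 with knockout 3 as the only knockout library. The number higher with WM-3835 was 3 without any 1 of DMSO 1, DMSO 2, DMSO 3, WM-3835 1 or WM-3835 2, and 4 without WM-3835 3.

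The comparisons share no library, so their calls could be set side by side. A group of 9 members was called in both, which is 69.2% of the 13 called in the knockout and 52.9% of the 17 called with WM-3835. Over all genes the corresponding shares were 37.8% and 28.7%. Il2ra, Il15ra, Il21r, Il11ra1, Il11ra2 and Il12a were lower in both, Il1r1 and Il6st were higher in both, and Il24 was called in opposite directions. Only Il2ra, Il15ra, Il21r and Il11ra2 kept both calls under all other settings. Shares under those settings are not given, so how firm the overlap is cannot be told. Across the 69 tested members the changes had a Pearson correlation of 0.339 and a Spearman correlation of 0.266, beside 0.281 and 0.268 across all tested genes. These are descriptions across genes, which are not independent replicates and share their libraries.

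**Figure D2:**
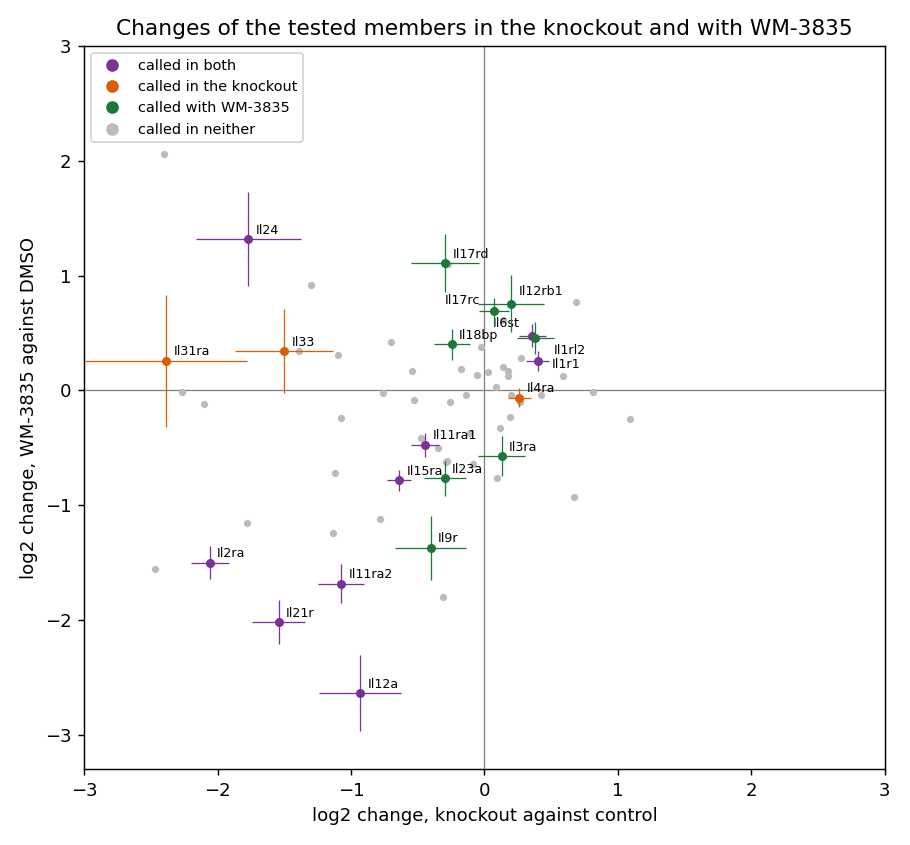
Log2 change in the knockout (horizontal) against log2 change with WM-3835 (vertical), with 1 point per tested member and bars of 1 standard error for called members. The plot holds 67 members and leaves 2 with changes beyond 3 outside its range. Il2ra, Il21r, Il11ra2, Il15ra, Il11ra1 and Il12a lie at the lower left, and Il24 lies at the upper left.

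Among the common gamma chain and type 2 receptors, Il2ra, Il15ra and Il21r fell in both settings. Of the 10 chains, all tested, 3 were lower and 1 was higher in the knockout, and with WM-3835 4 were lower. Here and for the other families, the background over all tested genes was 6.12% higher and 8.06% lower in the knockout, and 9.34% higher and 9.35% lower with WM-3835. Il2ra (Entrez ID 16184), the high-affinity chain of the interleukin-2 receptor, known as CD25, stood at 45.5, 36.6 and 42.3 CPM in control and at 10.4, 10.1 and 9.35 CPM in knockout libraries. In DMSO libraries it stood at 28.1, 36.8 and 27.8 CPM and in WM-3835 libraries at 11.6, 10.4 and 10.8. Every treated library lay below every library of its own control, and knockout and WM-3835 cultures reached nearly the same level. Il2ra fell by 2.06 in log2 in the knockout (SE 0.14, adjusted p = 8.27e-08) and by 1.50 with WM-3835 (SE 0.14, adjusted p = 7.14e-07). The changes differed by −0.56 (SE 0.20, adjusted p = 0.0831), which did not pass the test.

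Il15ra (Entrez ID 16169) and Il21r (Entrez ID 60504), the interleukin-21 receptor, fell as well. Il15ra stood at 113, 153 and 119 CPM in control and at 83.1, 84.3 and 80.1 in knockout libraries. Its DMSO libraries stood at 170 ± 0.139 CPM (SD, n = 3) and its WM-3835 libraries at 96.3, 98.7 and 102 CPM. The groups of each pair did not overlap, and the log2 changes were −0.64 (SE 0.09, adjusted p = 1.68e-04) in the knockout and −0.78 (SE 0.09, adjusted p = 7.91e-06) with WM-3835. Il21r stood at 10.8, 8.37 and 7.37 CPM in control, 2.84, 2.43 and 3.86 in knockout, 30.4, 34.6 and 33.5 with DMSO, and 7.43, 8.82 and 8.05 with WM-3835. It fell by 1.54 (SE 0.20, adjusted p = 5.95e-05) and by 2.02 (SE 0.19, adjusted p = 7.1e-07) on the log2 scale. The WM-3835 level of Il21r was close to that of the controls, and its DMSO level was higher than the control level by 1.89 (SE 0.19, adjusted p = 6.8e-07). The falls of Il2ra, Il15ra and Il21r passed the test in both comparisons under all 22 other settings.

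Il2ra and Il15ra are neighbours on chromosome 2, and their upstream sequences are shown because the genes fell together. On the GRCm38.p6 assembly (mm10), Il2ra spans chr2:11642792-11693194 and Il15ra spans chr2:11705172-11733985, both on the plus strand and 11977 bases apart. Il21r (chr7:125603252-125634397) and Il12a (chr3:68690644-68698550), described below, fell in both settings too. The sequences are the bases just before the first annotated base of each gene (RefSeq, GRCm38.p6, plus strand, 5′ to 3′), from chr2:11642542-11642791, chr2:11705043-11705171, chr7:125603179-125603251 and chr3:68690394-68690643. Capitals mark matches on either strand to an NF-kB motif, GGGA and CC with any 4 bases between.
Il2ra: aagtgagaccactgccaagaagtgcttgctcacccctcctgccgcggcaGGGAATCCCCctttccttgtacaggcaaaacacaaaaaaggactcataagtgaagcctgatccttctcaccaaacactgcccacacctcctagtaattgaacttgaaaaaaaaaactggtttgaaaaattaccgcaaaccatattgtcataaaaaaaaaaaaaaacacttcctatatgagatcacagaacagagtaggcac
Il15ra: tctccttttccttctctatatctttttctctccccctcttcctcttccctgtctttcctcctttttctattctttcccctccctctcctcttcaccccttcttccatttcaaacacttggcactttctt
Il21r: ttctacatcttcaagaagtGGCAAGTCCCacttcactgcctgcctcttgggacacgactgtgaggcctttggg
Il12a: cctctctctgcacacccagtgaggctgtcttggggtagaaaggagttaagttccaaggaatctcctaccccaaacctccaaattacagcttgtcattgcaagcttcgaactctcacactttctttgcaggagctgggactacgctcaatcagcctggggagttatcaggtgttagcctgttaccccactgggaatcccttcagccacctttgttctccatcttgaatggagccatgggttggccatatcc
The Il2ra window held GGGAATCCCC, ending 192 bases before the gene, and the Il21r window held GGCAAGTCCC, the motif on the other strand, ending 45 bases before it. The Il15ra window held no match and consisted of C or T at 89.9% of its bases. The NF-kB letters occur in 17.6% of all 32851 annotated windows of 250 bases, in 8.33% of windows of 129 bases and in 4.34% of windows of 73 bases. Among 82 windows of 67 members, 19.5% held the NF-kB letters, 15.9% the AP-1 letters TGANTCA (6.75% of all windows), 11% the STAT letters TTCNNNGAA (7.02%) and 2.44% the interferon response letters, GAAA and GAAA with any 2 bases between (2.98%). A match is a run of letters and was not tested as a binding site.

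**Figure D3:**
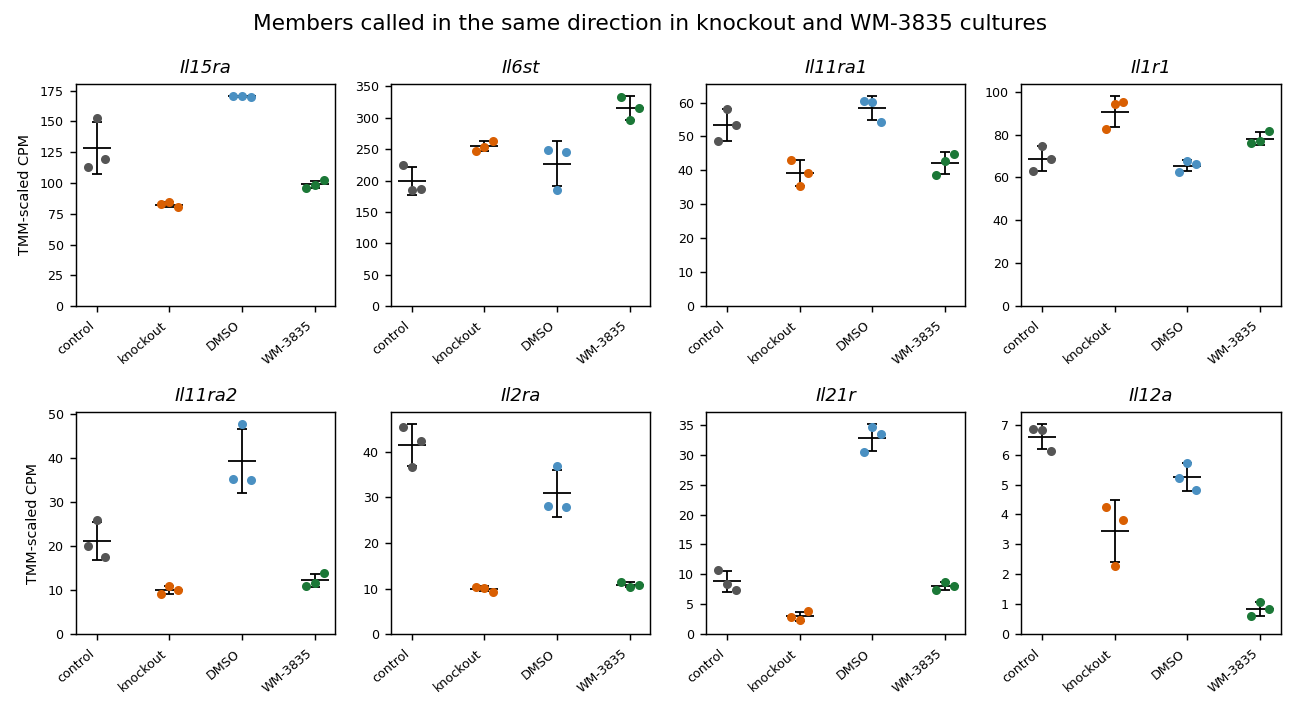
TMM-scaled CPM in each library of the 8 members called in the same direction in the knockout and with WM-3835, with group means and SD (n = 3, axes from 0). Il15ra, Il11ra1, Il11ra2, Il2ra, Il21r and Il12a are lower in knockout than in control and lower with WM-3835 than with DMSO, and Il6st and Il1r1 are higher.

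The partner chains of these receptors did not pass the test. Il2rg, which serves the receptors for interleukins 2, 4, 9, 15 and 21 alike, changed by −0.14 (SE 0.13, adjusted p = 0.532) in the knockout and by −0.04 (SE 0.13, adjusted p = 0.884) with WM-3835. Il2rb, the signalling chain of the interleukin-2 and interleukin-15 receptors, was scarce, at 0.334 to 2.85 CPM across control and knockout libraries and 1.02 to 1.94 across DMSO and WM-3835 libraries. Il15, the ligand of Il15ra, stood at 38.3 ± 7.83 CPM in control, 41.4 ± 5.07 in knockout, 39.7 ± 4.05 with DMSO, and 31.7 ± 1.08 with WM-3835 (SD, n = 3). Its WM-3835 libraries lay below its DMSO libraries without overlap, but the log2 change of −0.32 (SE 0.14, adjusted p = 0.121) was not called. Il2 and Il21, the ligands of Il2ra and Il21r, were among the members too scarce for the main test. Of the 4 tested ligands of the family, edgeR called 0 in either comparison, although 1 had an unadjusted p under 0.05 in each. These were Il13, an inducer of type 2 responses, higher in the knockout without overlap (0.59, SE 0.23, adjusted p = 0.0951) and called there by limma-voom, and Il15, called with WM-3835 by limma-voom with quality weights.

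Il4ra lies upstream of Il21r on chromosome 7, 23777 bases away, and did not share its fall. Il4ra stood at 216, 216 and 178 CPM in control and at 245, 231 and 257 in knockout libraries, a log2 rise of 0.26 (SE 0.09, adjusted p = 0.048). The call was lost without control 3, any 1 knockout library, any 1 DMSO library or WM-3835 3 (adjusted p up to 0.139). It was also lost with upper-quartile scaling, with quality weights in limma-voom, with only the 6 control and knockout libraries and with a replicate block. When knockout 3 stood alone for the knockout it was lost as well (log2 change 0.345). With WM-3835 Il4ra changed by −0.06 (SE 0.09, adjusted p = 0.7). Il9r, the interleukin-9 receptor, stood at 4.82, 4.68 and 5.87 CPM with DMSO, and 1.28, 3.00 and 1.67 with WM-3835. Its fall of 1.37 in log2 (SE 0.28, adjusted p = 0.00171) held under all other settings. In the knockout Il9r changed by −0.40 (SE 0.26, adjusted p = 0.348), so that the changes differed by 0.97 (SE 0.38, adjusted p = 0.123), which was not called. Il3ra, the interleukin-3 receptor chain that pairs with the common beta chain, stood at 16.9, 21.3 and 17.4 CPM with DMSO and at 10.5, 12.3 and 14.6 with WM-3835. It fell by 0.57 in log2 (SE 0.18, adjusted p = 0.0304), a call lost without DMSO 2, DMSO 3, WM-3835 1 or WM-3835 2 (adjusted p up to 0.158, and 0.00154 to 0.158 over all settings). Il3, Il5 and Il5ra, the other members of that family, were not called.

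Interleukin-2 and interleukin-9 receptors are known from lymphoid and mast cells, and markers of these cells were present at low levels in the RNA, which came from sorted thymic epithelial cells. The 10 innate lymphoid and natural killer markers summed to 94.5 to 125 CPM in control, 75.1 to 89.5 in knockout, 54.3 to 56.5 in DMSO and 83.5 to 93.0 in WM-3835 libraries. They were thus lower in the knockout but higher with WM-3835, whereas Il2ra fell in both. Among these markers Ncr1, Nkg7, Gzma and Klrb1c averaged under 0.1 CPM in the knockout and WM-3835 groups, and Klrb1c did so in all groups. The 6 mast cell and basophil markers summed to 52.6 to 74.7 CPM in control, 46.3 to 61.5 in knockout, 18.6 to 19.8 in DMSO and 16.6 to 30.4 in WM-3835 libraries. Fcer1a and Ms4a2 averaged under 0.1 CPM in the knockout and WM-3835 groups. The part of such cells in the values of Il2ra, Il9r or other members was not tested. In bulk RNA, fewer cells of a type and less RNA per cell cannot be told apart.

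**Figure D4:**
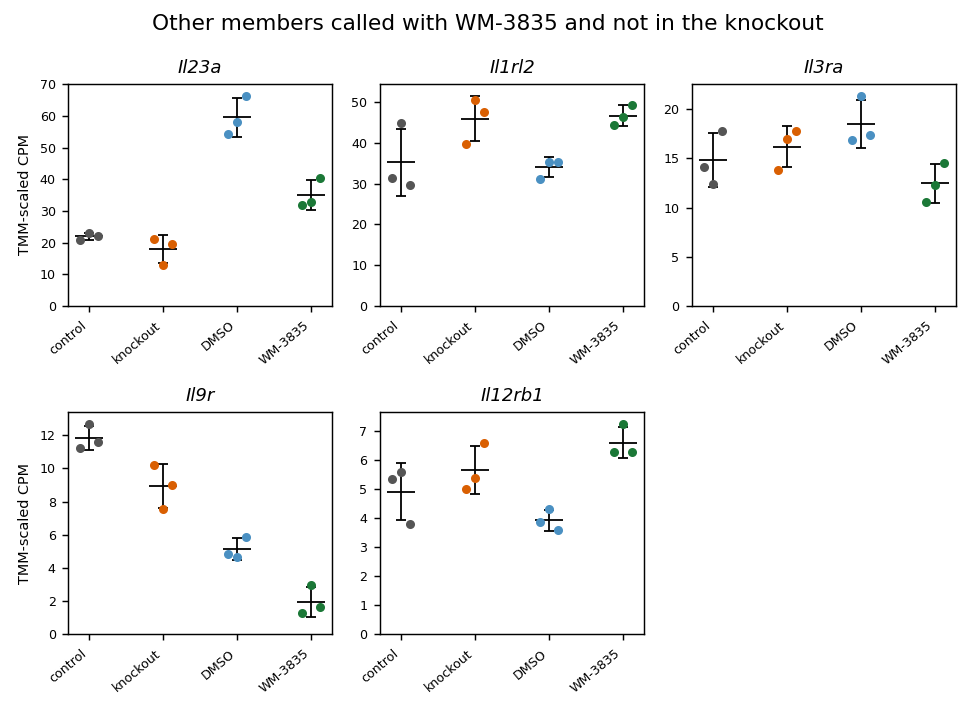
TMM-scaled CPM in each library of 5 members called with WM-3835 and not in the knockout, whose changes were not called different between the comparisons, with group means and SD (n = 3, axes from 0). Il23a, Il3ra and Il9r are lower with WM-3835 than with DMSO, and Il1rl2 and Il12rb1 are higher.

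In the interleukin-6 family, the shared signal chain Il6st rose while Il11ra1 and Il11ra2 fell in both settings. Of the 6 receptor chains, 1 was higher and 3 were lower in the knockout, and 1 was higher and 2 were lower with WM-3835. The chains Il6ra and Il27ra were not called by edgeR in either comparison. Il27ra stood at 2.77, 3.67 and 3.65 CPM with DMSO and at 1.21, 1.93 and 1.49 with WM-3835, without overlap. There limma-voom with quality weights called Il27ra lower. Of the 4 ligands (Il6, Il11, Il27 and Il31), edgeR, DESeq2 and limma-voom called 0 in either comparison, and 0 had an unadjusted p under 0.05 in edgeR. Il6st (Entrez ID 16195) stood at 225, 185 and 187 CPM in control, 247, 254 and 264 in knockout, 249, 186 and 245 with DMSO, and 334, 296 and 316 with WM-3835. It rose by 0.36 (SE 0.10, adjusted p = 0.0246) in the knockout and by 0.48 (SE 0.10, adjusted p = 0.00237) with WM-3835. The rise with WM-3835 held under all other settings. The rise in the knockout was lost without control 2, control 3, knockout 2 or knockout 3 (adjusted p up to 0.0723). It was also lost with quality weights in limma-voom and when knockout 3 stood alone for the knockout (log2 change 0.42).

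Il11ra1 (Entrez ID 16157) encodes the interleukin-11 receptor chain and Il11ra2 (Entrez ID 16158) is a close copy of it. Il11ra1 stood at 48.7, 58.2 and 53.3 CPM in control, 43.1, 35.3 and 39.2 in knockout, 60.5, 60.3 and 54.3 with DMSO, and 38.6, 42.7 and 44.9 with WM-3835. It fell by 0.45 (SE 0.11, adjusted p = 0.00857) in the knockout and by 0.47 (SE 0.11, adjusted p = 0.00335) with WM-3835. The knockout call of Il11ra1 was lost without knockout 2 (adjusted p = 0.0551), with quality weights in limma-voom and with only the 6 control and knockout libraries. It was also lost when knockout 3 stood alone for the knockout (log2 change −0.43). Il11ra2 stood at 20.1, 26.0 and 17.4 CPM in control, 9.12, 10.97 and 10.2 in knockout, 35.1, 47.6 and 35.0 with DMSO, and 10.97, 11.7 and 14.0 with WM-3835. Its groups did not overlap in either pair, and it fell by 1.07 (SE 0.17, adjusted p = 4.65e-04) and by 1.68 (SE 0.17, adjusted p = 1.83e-06) on the log2 scale. Of 1225 distinct stretches of 75 bases in the Il11ra2 transcript, 50.3% also occur in Il11ra1 transcripts, so reads may have been shared between the copies and each gene's own change is uncertain. Il11ra1 and Il11ra2 also overlap Ccl27a and Ccl27b on the genome, and the library kit does not mark strand.

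Il31ra, the interleukin-31 receptor chain, lies 15070 bases from Il6st on chromosome 13 and moved the other way in the knockout. Its counts were low, at 2.93, 4.28 and 2.81 CPM in control and 0.138, 1.03 and 0.765 CPM in knockout libraries. Il31ra fell by 2.39 in log2 (SE 0.61, adjusted p = 0.0138). The call was lost when only the 6 control and knockout libraries were fitted, and when knockout 3 stood alone for the knockout (log2 change −2.11, adjusted p = 0.106, the range over all settings being 4.71e-04 to 0.106). With WM-3835 it changed by 0.26 (SE 0.58, adjusted p = 0.839), and the difference between the changes was −2.64 (SE 0.83, adjusted p = 0.0508). That difference missed the threshold in edgeR and was called by DESeq2 and by limma-voom with and without quality weights.

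Among the interleukin-12 family, subunits of the ligands fell with WM-3835. Of the 6 genes, 1 was lower in the knockout, and 2 were lower and 1 was higher with WM-3835. Il12a (Entrez ID 16159), the p35 subunit of interleukin-12, stood at 6.84, 6.82 and 6.12 CPM in control, 4.24, 2.28 and 3.82 in knockout, 5.20, 5.72 and 4.82 with DMSO, and 0.627, 1.07 and 0.833 with WM-3835. With WM-3835 it fell by 2.64 in log2 (SE 0.33, adjusted p = 1.66e-05), which held under all other settings. In the knockout it fell by 0.93 (SE 0.31, adjusted p = 0.0491), and leaving out any 1 of the 12 libraries lost that call (adjusted p up to 0.162). Quality weights in limma-voom, no filter on low counts, only the 6 control and knockout libraries, and a replicate block lost it too. So did taking knockout 3 alone for the knockout (log2 change −0.77). The fall was steeper with WM-3835, the difference being 1.71 (SE 0.44, adjusted p = 0.0175). That difference was not called without WM-3835 1 (adjusted p = 0.0545) or with limma-voom without quality weights. Its adjusted p ranged from 0.00225 to 0.0607 over all settings.

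Il23a, the p19 subunit of interleukin-23, stood at 54.4, 58.1 and 66.2 CPM with DMSO and at 31.8, 32.9 and 40.5 with WM-3835. It fell by 0.77 in log2 (SE 0.15, adjusted p = 0.0014) under all settings. In the knockout it changed by −0.30 (SE 0.16, adjusted p = 0.229), and the difference of 0.47 (SE 0.22, adjusted p = 0.201) was not called. Il12b, the subunit that joins Il12a in interleukin-12 and Il23a in interleukin-23, was scarce, at 0 to 0.615 CPM across the 12 libraries, and was not called. Il12rb1, the receptor chain shared by interleukin-12 and interleukin-23, stood at 3.85, 4.30 and 3.60 CPM with DMSO and at 6.29, 7.22 and 6.28 with WM-3835. Its rise of 0.75 (SE 0.25, adjusted p = 0.0412) was lost when any 1 DMSO or WM-3835 library was left out (adjusted p up to 0.161, and 0.0022 to 0.161 over all settings). That call was also lost with upper-quartile scaling, with no filter on low counts and with a replicate block. The other chains, Il12rb2 and Il23r, were not called in either comparison.

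In the interleukin-1 family, Il1r1 rose in both settings, Il1rl2 rose with WM-3835 and the ligand Il33 fell in the knockout. Of the 6 tested receptor chains among 9, 1 was higher in the knockout and 2 with WM-3835, and of the 9 tested ligands and inhibitors among 11, 1 was lower in the knockout and 1 was higher with WM-3835. Il1r1 (Entrez ID 16177), the signalling receptor for interleukin-1, stood at 63.1, 74.5 and 68.8 CPM in control, 82.4, 94.2 and 95.4 in knockout, 62.5, 67.8 and 66.3 with DMSO, and 76.0, 76.9 and 81.6 with WM-3835. It rose by 0.40 (SE 0.09, adjusted p = 0.00521) in the knockout, a call kept under all other settings. With WM-3835 it rose by 0.25 (SE 0.09, adjusted p = 0.0487), a call lost without knockout 2, knockout 3 or any 1 DMSO or WM-3835 library (adjusted p up to 0.187, and 0.00289 to 0.187 over all settings). Il1rl2, the receptor for interleukin-36, lies 8387 bases from Il1r1 on chromosome 1. It stood at 31.2, 35.4 and 35.4 CPM with DMSO and at 44.3, 46.2 and 49.4 with WM-3835, a rise of 0.46 (SE 0.14, adjusted p = 0.0273) that was lost without any 1 of these 6 libraries (adjusted p up to 0.12, and 2.37e-04 to 0.12 over all settings). In the knockout it changed by 0.38 (SE 0.14, adjusted p = 0.0756). Il18r1, the interleukin-18 receptor, lay lower without overlap in both settings, but its changes of −0.47 (SE 0.16, adjusted p = 0.0549) and −0.41 (SE 0.16, adjusted p = 0.0886) were not called by edgeR. DESeq2 and limma-voom called Il18r1 lower in the knockout, and limma-voom with quality weights called it lower with WM-3835. Il18rap, under the filter, stood at 0.260, 0.0498 and 2.12 CPM in control and had 0 counts in all knockout libraries. DESeq2, which was run without that filter, called Il18rap lower in the knockout. Il1r2, a decoy receptor for interleukin-1, stood at 11.1, 12.3 and 10.5 CPM with DMSO and at 6.07, 8.66 and 7.39 with WM-3835, without overlap. Its change of −0.62 (SE 0.21, adjusted p = 0.0542) missed the threshold in edgeR, while DESeq2 and limma-voom, with and without quality weights, called it lower. In the knockout Il1r2 changed by −0.28 (SE 0.21, adjusted p = 0.428).

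The ligands of these receptors were low. Il1a stood at 2.08, 1.99 and 6.07 CPM in control and at 1.57, 0.515 and 0.243 in knockout libraries, without overlap, and its change of −2.10 (SE 0.72, adjusted p = 0.057) was not called by edgeR but was called by DESeq2. Il1b stood at 0.0374 to 2.26 CPM across the 12 libraries, and reads in the stretch where it overlaps the antisense gene Il1bos cannot be told apart from those of that gene. Il36a had 0 counts in all WM-3835 libraries and 22 counts in the DMSO libraries. Against a floor of 3 counts over the group it was at least 7.55-fold lower, but its change was not called by edgeR (adjusted p = 0.134), while limma-voom with quality weights called it lower. The antagonist Il1rn stood at 67.3 ± 10.5 CPM in control, 77.1 ± 11.1 in knockout, 42.5 ± 4.82 with DMSO, and 41.2 ± 5.4 with WM-3835 (SD, n = 3), and was not called in either comparison.

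Il33 (Entrez ID 77125), an alarm signal released from nuclei of damaged cells, fell in the knockout. It stood at 6.46, 7.69 and 12.4 CPM in control and at 1.79, 3.94 and 3.69 in knockout libraries, a fall of 1.50 in log2 (SE 0.37, adjusted p = 0.0105). The call was lost with knockout 3 as the only knockout library (log2 change −1.25, adjusted p = 0.186, the range over all settings being 0.00146 to 0.186). The 8 mesenchymal markers also summed to less in knockout libraries, at 61.3 to 82.5 CPM against 128 to 190 CPM in control. In the knockout 4 of the 8 were called lower and none was at 0, while Pdgfrb averaged 10.9 CPM against 11.3 in control. With WM-3835 3 of the 8 were called lower and 1 higher, with sums of 50.9 to 63.0 CPM against 57.9 to 71.6 with DMSO. The part of mesenchymal cells in the fall of Il33 was not tested. With DMSO and WM-3835 Il33 stood at 1.53 to 2.91 CPM and changed by 0.34 (SE 0.37, adjusted p = 0.612). Its receptor Il1rl1 was not called in either comparison. Il18bp, the secreted inhibitor of interleukin-18, stood at 23.5, 21.1 and 19.6 CPM with DMSO and at 26.8, 27.8 and 30.4 with WM-3835. It rose by 0.40 (SE 0.14, adjusted p = 0.0492), a call lost without knockout 1 or any 1 DMSO or WM-3835 library (adjusted p up to 0.209, and 0.0039 to 0.209 over all settings). That call was also lost with scaling by RLE or upper quartile, either other filter, limma-voom without quality weights, and a replicate block. Il18 itself stayed under 1 CPM in every library.

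Il24 (Entrez ID 93672, chr1:130882074-130887411), a ligand of the interleukin-10 family that acts through Il20rb and Il22ra1 or Il20ra, was the member called in opposite directions. It stood at 15.2, 9.04 and 8.21 CPM in control and at 1.76, 2.76 and 5.01 in knockout libraries. With DMSO it stood at 1.10, 0.935 and 0.726 CPM and with WM-3835 at 2.93, 2.58 and 1.35. The groups did not overlap in either pair, but the DMSO and WM-3835 libraries all lay far below the controls. Il24 fell by 1.77 in log2 in the knockout (SE 0.39, adjusted p = 0.00588) and rose by 1.32 with WM-3835 (SE 0.41, adjusted p = 0.0311). The changes differed by −3.09 (SE 0.57, adjusted p = 0.00143), and this difference was called under all other settings. The rise with WM-3835 was lost without any 1 of the DMSO libraries, WM-3835 1 or WM-3835 2 (adjusted p up to 0.135, and 0.0158 to 0.198 over all settings). That call was also lost with limma-voom without quality weights. The fall in the knockout was lost with knockout 3 as the only knockout library (log2 change −1.10, adjusted p = 0.252, the range over all settings being 3.94e-04 to 0.252). The other tested ligands, Il10, Il19 and Il22, were not called. Of the 4 tested receptor chains of the family edgeR called 0, although 1 of them, Il20rb, had an unadjusted p under 0.05 in the knockout, where it changed by −0.55 (SE 0.19, adjusted p = 0.0594) and was called lower by DESeq2.

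Of the interleukin-17 receptor chains, Il17rc and Il17rd rose with WM-3835. Of the 4 chains, all tested, 2 were higher with WM-3835, while edgeR, DESeq2 and limma-voom called 0 in the knockout and 0 had an unadjusted p under 0.05 in edgeR. Il17rc (Entrez ID 171095), which binds interleukin-17 together with Il17ra, stood at 38.2, 36.7 and 41.4 CPM with DMSO and at 62.5, 66.1 and 59.3 with WM-3835, a rise of 0.69 (SE 0.11, adjusted p = 2.22e-04). In control and knockout libraries it stood at 28.9 ± 4.06 and 30.4 ± 2.07 CPM (SD, n = 3), a change of 0.07 (SE 0.11, adjusted p = 0.739). Il17rd (Entrez ID 171463), a chain that also restrains FGF signalling, stood at 9.52, 11.5 and 8.45 CPM with DMSO and at 23.5, 20.0 and 19.8 with WM-3835, a rise of 1.11 (SE 0.25, adjusted p = 0.00428). In the knockout Il17rd changed by −0.30 (SE 0.26, adjusted p = 0.495). Both rises held under all other settings. Il17re, which lies 696 bases from Il17rc on chromosome 6, changed by 0.20 (SE 0.22, adjusted p = 0.612) with WM-3835, and Il17ra by −0.23 (SE 0.13, adjusted p = 0.243). Every WM-3835 library of Il17ra lay below every DMSO library, and limma-voom with quality weights called it lower.

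Il17b, a ligand of the family, had 0 counts in all knockout libraries and stood at 0.733, 1.37 and 0 CPM in control libraries. Over the groups it was at least 21.6-fold lower in the knockout, taking 3 counts over the knockout group as the floor, and it was called lower (adjusted p = 0.0456). A control library was also at 0, so the groups overlapped, and the call was lost when any 1 library other than control 3 or WM-3835 2 was left out (adjusted p up to 0.116). It was also lost with limma-voom, without and with quality weights, with a replicate block, and when knockout 3 stood alone for the knockout. Il17f, under the filter, had 0 counts in all knockout libraries too, and stood at 0.402, 0.0249 and 0.946 CPM in control libraries. DESeq2, which was run without that filter, called Il17f lower in the knockout.

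**Figure D5:**
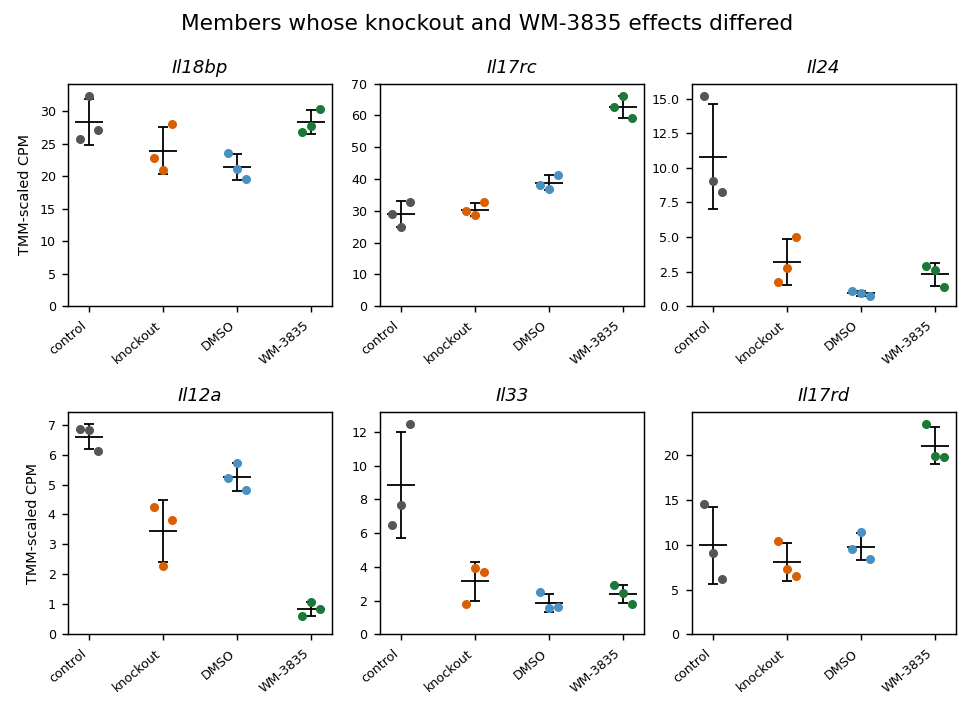
TMM-scaled CPM in each library of the 6 members whose change in the knockout differed from their change with WM-3835, with group means and SD (n = 3, axes from 0). Il17rc and Il17rd are higher with WM-3835 than with DMSO, Il33 and Il24 are highest in controls, and Il12a falls further with WM-3835.

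The difference between the effects was itself called for 6 of the 69 tested members (8.7%), against 10.1% of all genes. The difference, taken as the knockout change minus the WM-3835 change, was positive for 1 member, Il12a, and negative for 5, Il18bp, Il33, Il24, Il17rc and Il17rd (1.45% and 7.25%, against 4.41% and 5.69% of all genes). The number positive was 0 without WM-3835 1, 3 without control 2, and 2 without control 3, knockout 2 or WM-3835 2. The number negative was 3 without knockout 1, DMSO 2 or WM-3835 2, and 2 without DMSO 3 or WM-3835 1. In all, 48 of the tested members were called in neither comparison nor in the difference.

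The signalling genes downstream of these receptors were counted in lists. Of 11 JAK and STAT genes, 2 rose and 2 fell in the knockout and 5 rose and 1 fell with WM-3835, with median log2 changes of 0.018 and 0.156. For this and the following lists, 14.2% of all tested genes were called in the knockout and 18.7% with WM-3835. Jak2, the kinase used by receptors such as Il12rb2 and Il23r, rose by 0.62 (SE 0.08, adjusted p = 9.38e-05) in the knockout and by 0.94 (SE 0.08, adjusted p = 3.9e-07) with WM-3835. Tyk2, the partner kinase on Il12rb1 and Il10rb, rose by 0.42 (SE 0.08, adjusted p = 0.00266) and by 0.26 (SE 0.08, adjusted p = 0.0353). Stat6, the factor activated through Il4ra, rose by 0.52 (SE 0.08, adjusted p = 1.28e-04) with WM-3835, and Stat3, activated through Il6st, fell by 0.20 (SE 0.06, adjusted p = 0.0295) in the knockout.

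Genes that restrain or relay these signals were counted in the same way. Of 12 SOCS and related brakes, 1 fell in the knockout and 1 rose and 1 fell with WM-3835. The knockout fall was Socs3, an inhibitor of Il6st signalling, at −0.57 (SE 0.13, adjusted p = 0.00775), and with WM-3835 Socs1 rose by 0.35 (SE 0.09, adjusted p = 0.00836). Of 14 adaptors of the interleukin-1 and interleukin-17 receptors, 1 rose and 1 fell in the knockout and 6 rose and 1 fell with WM-3835, with medians of −0.002 and 0.08. The share of adaptors called in the knockout was near that of all genes. In the knockout the fall was Nfkbiz, a nuclear regulator of NF-kB targets, at −0.75 (SE 0.12, adjusted p = 4.61e-04). With WM-3835 Myd88, the adaptor of interleukin-1 receptors, rose by 0.59 (SE 0.11, adjusted p = 0.00111), and its partner kinase gene Irak4 rose by 0.65 (SE 0.16, adjusted p = 0.00553). Of 10 inflammasome and interleukin-1 processing genes, 1 rose and 1 fell in the knockout and 2 rose with WM-3835. Casp1, the protease that activates interleukin-1 beta and interleukin-18, rose by 0.78 (SE 0.14, adjusted p = 7.71e-04) with WM-3835, and Nlrp1b, a sensor upstream of it, rose by 0.77 (SE 0.10, adjusted p = 4.97e-05) in the knockout and by 0.49 (SE 0.10, adjusted p = 0.00136) with WM-3835.

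Of 17 other cytokines and receptors of the same families, 1 rose and 1 fell in the knockout and 2 rose and 1 fell with WM-3835. Cntfr, a receptor chain that works with Il6st, fell by 0.56 (SE 0.16, adjusted p = 0.0231) in the knockout and rose by 0.61 (SE 0.16, adjusted p = 0.0108) with WM-3835. Lifr, which pairs with Il6st, fell by 0.66 (SE 0.07, adjusted p = 2.77e-06) with WM-3835, where Il6st rose. Clcf1, a ligand of the Cntfr receptor, rose by 0.82 (SE 0.18, adjusted p = 0.00505) in the knockout.

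The baselines of the comparisons differed in many members. Between DMSO and control, where treatment and genotype label both differ, 8 of the 69 tested members (11.6%) were higher and 15 (21.7%) lower, against 24.6% of all genes called in all, 11.4% higher and 13.3% lower. Xist also separated these groups, at 2.34 to 3.17 CPM in control and 1380 to 1900 CPM with DMSO, so treatment, genotype label and Xist level cannot be told apart here. The median log2 difference of the tested members was −0.566, against 0.002 over all genes. The number lower was 9 without DMSO 3. Il10, the ligand that restrains inflammation, stood at 6.18, 6.35 and 5.43 CPM in control and at 1.25, 1.46 and 0.492 with DMSO, and Il13 at 8.94, 16.1 and 13.4 against 6.46, 6.81 and 5.62. Il1rl1, the interleukin-33 receptor, stood at 3.79, 5.88 and 4.29 CPM against 0.520, 0.935 and 0.866. Among the members lower with DMSO without overlap were Il10, Il13, Il1rl1, Il33, Il24, Il9r, Il1rn, Il18r1, Il23r, Il10ra, Il13ra2, Il18bp and Il1a. Among those higher without overlap were Il21r, Il23a, Il11ra2, Il17ra, Il17rc, Il4ra, Il15ra and Il4i1. The 8 tuft cell markers were all called lower as well, summing to 792 to 1160 CPM in control and 79.9 to 120 with DMSO, and the 6 mast cell and basophil markers, of which all 4 tested were called lower, summed to 52.6 to 74.7 and 18.6 to 19.8 CPM. The part of these cells in the members' levels was not tested. The comparisons of WM-3835 with DMSO therefore started from a different level than those of the knockout with control for these members.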

How the data were processed

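Per the labels, RNA of sorted thymic epithelial cells was prepared with an unstranded kit and read as 75-base pairs. The authors deposited raw counts per gene, made with featureCounts on mm10 per the submitters' processing notes. The sources used here give no aligner, annotation or strand setting. Of 27179 listed genes, 1312 without a symbol (0.657% to 0.743% of counts) were left out. All 82 members were matched by Entrez ID to RefSeq positions on GRCm38.p6.

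Counts were scaled by TMM, filtered with filterByExpr and fitted in edgeR 4.0.16 (R 4.3.3) with 4 group means over 12 libraries. Quasi-likelihood tests were two-sided, with Benjamini-Hochberg adjustment over all 18670 genes and calls at an adjusted p under 0.05. The standard error is the log2 change divided by the root of the F statistic. CPM and RPKM are TMM-scaled, RPKM with the deposited gene lengths. The p-values rest on 3 libraries a group and on a spread per gene that the 4 groups share. That spread was unequal between groups. The coefficient of variation beyond counting noise was 0.469 in control, 0.294 in knockout, 0.103 with DMSO and 0.125 with WM-3835. A p-value therefore does not measure the spread of its own comparison alone, and may be too small for the knockout and too large for WM-3835. On data simulated for the knockout comparison over 18670 genes, 78.6% of 2-fold and 77.8% of 4-fold changes were recovered, with 3.75% false among the calls. The simulation gave all groups the same spread per gene, unlike the data, so its false share may not hold for the knockout comparison. Any changed gene that failed the filter was left out of the recovered share.

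The members and lists were chosen with earlier results of these data known. Named are members called in a comparison or in the difference, the 10 highest per length, their ligands, partner chains and inhibitors, and up to 4 called genes per signalling list by smallest adjusted p. For DMSO against control, the genes with values were picked after these were seen. Alternatives were scaling by RLE or upper quartile, tests with DESeq2 1.42.0 and limma-voom (limma 3.58.1), the latter without and with quality weights per group, 2 other filters, the 6 libraries of a comparison alone, a replicate block, each library left out, and knockout 3 as the only knockout library. The titles of the inhibitor samples spell WM-3825, their treatment WM-3835. No replicate pair agreed within counting noise. The squared deviation per gene was 42.7 to 51.2 times that of counting noise in control pairs and 8.57 to 22.3 times in pairs of the other groups.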

Additional observations from a re-analysis of the deposited data

Results flagged for a closer look

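For 6 members, the change in the knockout differed from the change with WM-3835 by a test of the difference itself (knockout change minus WM-3835 change, log2). The differences were −3.09 for Il24, −1.84 for Il33 (SE 0.52, adjusted p = 0.028), −1.40 for Il17rd (SE 0.36, adjusted p = 0.016), −0.65 for Il18bp (SE 0.19, adjusted p = 0.0409), −0.62 for Il17rc (SE 0.16, adjusted p = 0.016) and 1.71 for Il12a. For Il24 and Il33 the pairs also differed strongly in baseline. Control libraries held 8.21 to 15.2 CPM of Il24 and DMSO libraries 0.726 to 1.10. The corresponding values of Il33 were 6.46 to 12.4 and 1.53 to 2.49 CPM. Smaller baseline differences without overlap were seen for Il18bp (25.7 to 32.3 against 19.6 to 23.5 CPM) and Il12a (6.12 to 6.84 against 4.82 to 5.72). Il17rc was higher with DMSO without overlap (24.8 to 32.9 against 36.7 to 41.4), and the Il17rd libraries overlapped. The difference of Il24 was called under every other setting run. That of Il33 was lost without control 3, knockout 1, DMSO 2, DMSO 3, WM-3835 1 or WM-3835 2 (adjusted p up to 0.0814), that of Il17rc without DMSO 2 or WM-3835 2 (up to 0.0544), that of Il17rd without DMSO 3 or WM-3835 1 (up to 0.0539), and that of Il18bp without any 1 library but control 1, control 3 and knockout 3 (up to 0.134). That of Il33 was also lost with limma-voom without quality weights, and that of Il18bp with upper-quartile scaling or a replicate block. With knockout 3 as the only knockout library the differences of Il33, Il17rc, Il17rd and Il18bp were −1.59, −0.50, −1.69 and −0.40 and were not called.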

How the results depend on the processing

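Of 36 gene results, 17 kept their call under all other settings run for them, 19 lost it under at least 1, and 0 changed sign. Counts of called members moved as follows. Higher in the knockout, 3 became 1 with quality weights, and lower in the knockout, 10 became 15 with DESeq2, 6 with the 6 libraries alone and 4 when knockout 3 stood alone. Higher with WM-3835, 8 became 5 with upper-quartile scaling and 5 with no filter, and lower, 9 became 16 with quality weights and 15 with the 6 libraries alone. A positive difference, 1 member, became 2 with DESeq2 and 0 with limma-voom, where a single member lost the call, and negative, 5 became 1 with knockout 3 alone. For DMSO against control, 15 lower became 23 with DESeq2. With single libraries left out the counts ran from 1 to 4 and 8 to 11 (knockout, higher and lower), 3 to 8 and 8 to 10 (WM-3835), 0 to 3 and 2 to 6 (difference), and 8 to 9 and 9 to 18 (DMSO against control). The lone knockout library is assumed to vary like the other groups.

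Over all genes, libraries with the same replicate number deviated little together. Correlations ran from −0.019 to 0.058 over 18 pairs, against −0.056 to 0.03 over 36 others. Single genes could still run alike: Krt8 was highest in replicate 2 of control, DMSO and WM-3835 (2150, 2250 and 2000 CPM). In the knockout Krt8 was highest in replicate 1 (2000 CPM). Whether a shared number stands for a shared origin cannot be told from these values. With the replicate block the counts higher and lower were 3 and 10 in the knockout, 6 and 9 with WM-3835, 1 and 5 for the difference, and 8 and 15 for DMSO against control. The 6-library setting gives no value for the difference, and Il17b has none there or under the filter of CPM over 1. Scaling moved the median of all genes by at most 0.0492 (log2) in size. Members under about 1 CPM rest on few counts, where only large changes can be called.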
